A study of Homo sapiens with 21 samples.

Results

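The clustered protocadherins are the 53 protein-coding genes whose symbol begins with PCDHA, PCDHB, PCDHGA, PCDHGB or PCDHGC and ends in a number. They were chosen by name alone from the 58870 genes listed for each library. They comprise 15 genes of the alpha cluster, 16 of the beta cluster and 22 of the gamma cluster. Messenger RNA was sequenced in 21 libraries of A375, a human BRAF-mutant melanoma line, in 7 groups of 3 libraries each. A375 parental cells were grown without inhibitors. gSOX10 #2 and gSOX10 #4 are SOX10 knockout clones of A375 made by CRISPR with different guides, also grown without inhibitors, and each group is a single clone. The label of gSOX10 #4 carries a clone number that the study also uses for a clone of MeWo, another melanoma line, and was taken as it stands. CRT34 and CRT35 are A375 lines that became tolerant to the RAF inhibitor PLX4720 and the MEK inhibitor PD0325901 as tumours in mice. Both were kept in culture with PLX4720 at 1 µM and PD0325901 at 35 nM. They were sequenced with both inhibitors (Combo) and without them (DMSO), for a time that the labels do not give. No A375 parental cells with inhibitors and no clone that kept SOX10 were analysed here, so an effect of cloning or of passage through a mouse cannot be told apart from the loss of SOX10 or the acquired tolerance in any comparison with the parental line. The labels do not say whether libraries of the same group stem from separate cultures. For each clone the study speaks of 3 independent replicates, without saying how they were made. In every group p-values therefore measure only the spread between these libraries.

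Clustered protocadherins are cell-surface cadherins that are best known from neurons, where each cell uses its own small set of isoforms. Isoforms bind only their own kind on a neighbouring cell, and this gives a neuron a molecular identity by which its branches recognise and avoid each other. Each isoform has its own promoter in front of its own large first exon, which encodes the extracellular cadherin repeats, the membrane span and the start of the cytoplasmic part. In neurons a promoter is chosen when CTCF and cohesin loop it to a distant enhancer, and promoters that are not chosen are methylated. The alternate isoforms are chosen at random from cell to cell, whereas the C-type isoforms at the end of the alpha and gamma clusters are used by most cells of a type.

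The clusters lie in tandem on chromosome 5 (GRCh38), with the alpha genes between 140786140 and 141012347, the beta genes between 141051374 and 141249365 and the gamma genes between 141330514 and 141512977, all on the plus strand. A transcript of any of the 15 alpha genes joins its first exon to the same 3 constant exons of 59, 89 and 2721 bases. The 22 gamma genes likewise share 3 constant exons of 59, 89 and 2029 bases. The beta genes were annotated with 1 exon each and share none. Because of the constant exons, between 47.8% and 62.6% of all stretches of a read's length in an alpha transcript and between 44.3% and 53.6% of those in a gamma transcript also occurred in another member, against 0% to 25.3% in the beta genes. Reads from those stretches do not name an isoform, and RSEM, the authors' quantifier, divided them in proportion to the reads that do. Within the first exon alone a median of 99.4% of stretches in alpha, 94.0% in beta and 98.2% in gamma genes were found in no other member. The pairs with the most shared first-exon sequence were PCDHA7 with PCDHA9 (21.2%), PCDHB8 with PCDHB13 (20.0%), PCDHGB4 with PCDHGB5 (15.8%) and PCDHB10 with PCDHB9 (14.4%), and values within each of these pairs are less certain for that reason.

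The promoters of most clustered protocadherins carry a conserved element with the letters CGCT, which is part of a CTCF site, and PCDHAC2, PCDHB1, PCDHGC4 and PCDHGC5 are known for lacking it. RefSeq promoters (GRCh38.p14), 250 bases before to 50 after the start site, were matched for 47 of the 53 members. PCDHA3, PCDHA13, PCDHB6, PCDHB11, PCDHGA12 and PCDHGC5 were not matched. CGCT was found on the coding strand within 100 bases before the start in 44 of the 47, against 28.1% of all 35116 promoters in the set. The following sequences are shown because they belong to the genes that led their cluster or are described in the results. Each holds the CGCT, in capitals, that best matched those of the other members of the cluster, with 25 bases before and 10 after it, 5′ to 3′ on the plus strand. For PCDHAC2 and PCDHB1, named above as lacking the element, these letters cannot be taken as a sign of it. Their 39 bases shared a median of 16 with those of other members of their cluster, against 21 to 27 for the alternate alpha genes and the other beta genes. PCDHAC1 (15) and PCDHGB7 (10), which were not named as lacking it, were low as well. This median therefore does not part genes with the element from genes without it. Among the alpha genes PCDHA6 (chr5:140827888-140827926) led in every group, PCDHA10 (chr5:140855832-140855870) and PCDHA1 (chr5:140786077-140786115) were called in several comparisons, and PCDHAC2 (chr5:140966356-140966394) is a C-type gene.
PCDHA6: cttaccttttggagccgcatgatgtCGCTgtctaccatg
PCDHA10: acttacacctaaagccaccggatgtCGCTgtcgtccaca
PCDHA1: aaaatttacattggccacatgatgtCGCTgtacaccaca
PCDHAC2: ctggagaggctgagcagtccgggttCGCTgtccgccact
The letters ATGTCGCT occurred in 9 of 13 matched alpha promoters, on either strand, and in no beta or gamma promoter, against 0.234% of all promoters. Among the beta genes PCDHB13 (chr5:141213856-141213894) changed with a small spread, PCDHB16 (chr5:141182301-141182339) was among the highest, PCDHB3 (chr5:141100384-141100422) was high in a single library and PCDHB1 (chr5:141051265-141051303) was the lowest of the cluster in the parental cells.
PCDHB13: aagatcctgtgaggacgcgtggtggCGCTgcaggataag
PCDHB16: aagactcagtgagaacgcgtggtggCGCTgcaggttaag
PCDHB3: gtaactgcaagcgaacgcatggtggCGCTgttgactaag
PCDHB1: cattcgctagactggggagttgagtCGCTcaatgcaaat
The letters GTGGCGCTG, which overlap the same CGCT, occurred in 12 of 14 beta promoters and 0.572% of all promoters. In the gamma cluster the elements of PCDHGB5 (chr5:141397854-141397892) and PCDHGB4 (chr5:141387608-141387646) were identical over all 39 bases, and these genes differed in where they were detected, with PCDHGB5 between 0 and 8.10 in the 15 libraries of 5 groups in which PCDHGB4 was between 42.8 and 103. PCDHGA7 (chr5:141382640-141382678), PCDHGA2 (chr5:141338694-141338732) and PCDHGC3 (chr5:141475871-141475909) are shown beside them.
PCDHGB5: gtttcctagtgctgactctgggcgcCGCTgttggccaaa
PCDHGB4: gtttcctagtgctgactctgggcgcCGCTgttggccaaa
PCDHGA7: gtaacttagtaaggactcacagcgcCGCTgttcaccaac
PCDHGA2: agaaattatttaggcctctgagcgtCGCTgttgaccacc
PCDHGC3: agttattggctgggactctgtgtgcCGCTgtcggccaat
The letters GCCGCTGT occurred in 11 of 20 gamma promoters and 1.63% of all promoters. A match describes these letters alone, and binding was not measured.

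Depth was read from the value of 1 read in each library and ran from 27.9 (CRT35 DMSO replicate 1) to 76.1 M reads, so that 3 reads were worth a value of 2.51 to 6.72 and lower values cannot be told from 0. SOX10, which directs neural crest and melanocyte development, had values of 10350 to 12820 in the parental libraries, 392 to 517 in the knockout clones, whose guides need not remove the RNA, and 0 to 6.32 in the CRT libraries. Of 8 melanocytic markers, 5 reached a mean of 10 in some group, and MLANA and TYR were under 1 in the mean of every group. The sum of the 8, most of it MITF, was 1454 to 1618 in parental libraries, 900.3 to 2727 in the clones, 4659 to 10810 in CRT34 Combo and 1626 to 4501 in the other CRT groups. Markers of other cell types moved with the groups. The 5 fibroblast markers summed to 476 to 613 in parental libraries, 1132 to 2566 in the clones and 70180 to 380800 in the CRT libraries, and all 5 reached a mean of 10. Of the 4 endothelial markers, which summed to 62.6 to 81.9 in parental, 120.0 to 219 in clone and 1935 to 7633 in CRT libraries, TEK made up most of the CRT value. CD68 made up most of the leukocyte sum (1574 to 1695 in parental libraries, 6241 to 8250 in gSOX10 #2, 3703 to 4503 in gSOX10 #4 and 3178 to 16880 in CRT libraries). The part of these markers in the protocadherin results was not tested.

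All 53 members passed the filter, which asked for 3 or more libraries with a value of 10 or more. It left 19290 genes in all. Values are RSEM gene counts that the authors had divided by size factors, and changes are given as log2(value + 1), a scale on which the change of a gene with low values comes out too small. A gene is called here when limma's test across all genes gave an adjusted p of 0.05 or lower with a change of at least 2-fold. The heat map of all members by library shows the pattern in outline.

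**Figure D1:**
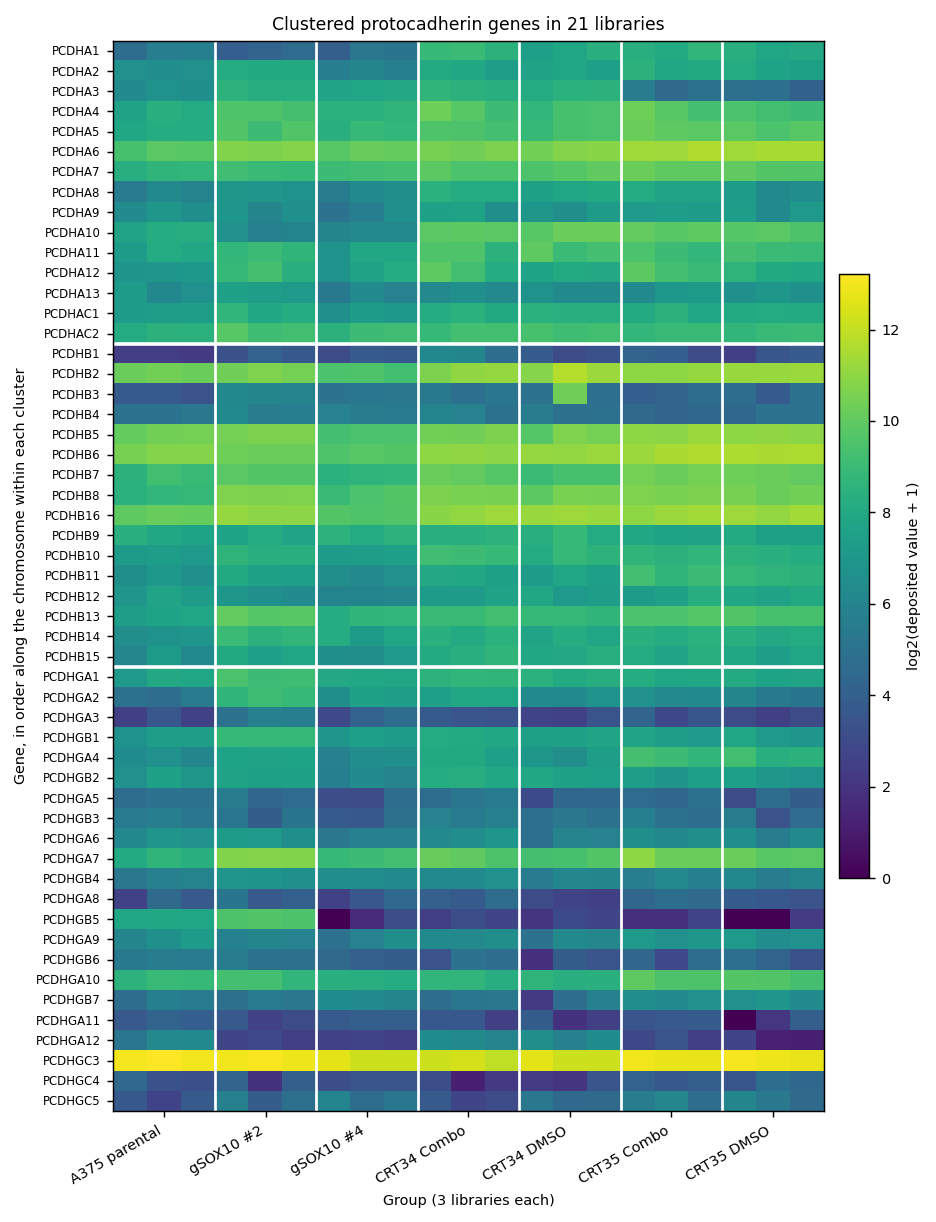
Each row is a clustered protocadherin gene, in order along the chromosome within the alpha, beta and gamma clusters (white horizontal lines), each column is a library (3 per group), and colour is log2(value + 1). PCDHGC3 is the brightest row in all 21 libraries, PCDHGB5 is dark in all but the parental and gSOX10 #2 libraries, and PCDHB3 is bright in 1 library of CRT34 DMSO.

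Most of the family was on in these cells. In the parental line 50 of 53 members had a mean value of at least 10 and 31 of at least 100, and the counts for the other groups lay between 46 and 51 and between 26 and 36. To compare isoforms, each value was divided by the length of its transcript and expressed as a share of its cluster. PCDHA6 was the leading alpha isoform in all 21 libraries, with 24.6% ± 0.88 (SD, n = 3) of the cluster in parental cells, 25.7% ± 2.4 in gSOX10 #2, 26.3% ± 1.5 in gSOX10 #4, 17.7% ± 4 in CRT34 Combo, 21% ± 1.6 in CRT34 DMSO, 28.2% ± 5.3 in CRT35 Combo and 33.2% ± 3.8 in CRT35 DMSO. Its share was therefore lowest in CRT34 and highest in CRT35. The next isoform was PCDHA7 in the parental line, gSOX10 #4 and both CRT35 groups, PCDHA4 in gSOX10 #2 and PCDHA10 in both CRT34 groups, at 10.6% to 15.2%. PCDHA4 and PCDHA5 in gSOX10 #2 differed by less than their SD.

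The beta cluster had no dominant isoform. PCDHB6 led in the parental line with 25.2% ± 0.51 (SD, n = 3), followed by PCDHB5 with 18.7% ± 1.2, and PCDHB6 also led in gSOX10 #4 and the CRT groups with 16.7% to 22.9%. In gSOX10 #2 the leader was PCDHB8 with 18.8% ± 0.55, where PCDHB6 held 12.1% ± 0.1. PCDHB6 led all 3 libraries in the parental line, CRT35 Combo and CRT35 DMSO but 2 of 3 in gSOX10 #4, CRT34 Combo and CRT34 DMSO, where the library ranges of it and the next isoform overlapped. Without the division by length PCDHB16 led in gSOX10 #2 and CRT34 Combo and PCDHB2 in CRT34 DMSO, so the order among the top beta isoforms depends on the annotated lengths.

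PCDHGC3, a C-type isoform that is known to bind the Wnt pathway protein Axin1, made up most of the gamma cluster. Its values were 8481, 9559.9 and 8182 in parental cells, 7836, 8808 and 7444 in gSOX10 #2 and 6672, 4691 and 4838 in gSOX10 #4. In the CRT lines they were 4733, 5366 and 3931 in CRT34 Combo, 6547, 4792 and 4698 in CRT34 DMSO, 7866, 7164 and 7076 in CRT35 Combo and 8336, 7614 and 6968 in CRT35 DMSO. The parental libraries lay above those of gSOX10 #4 and both CRT34 groups. No change from the parental line passed the 2-fold threshold, the largest log2 change being -0.91 ± 0.15 (SE, adjusted p = 9.89e-05) in CRT34 Combo. As a share of the gamma cluster PCDHGC3 went from 80.4% ± 2.4 in parental cells to 59.4% ± 1.5 in gSOX10 #2 and 59% ± 1.8 in CRT34 Combo, with 73% ± 5.3 in gSOX10 #4 and 64.9% to 70.5% in the other CRT groups. Behind it stood PCDHGA10 in parental cells (4.05% ± 0.35) and PCDHGA7 in every other group (7.45% to 12.8%). The number of equally used isoforms that would give the same evenness was 11.2 ± 0.24 of 15 for alpha, 8.39 ± 0.20 of 16 for beta and 2.70 ± 0.25 of 22 for gamma in parental cells. The gamma number was 4.82 ± 0.26 in gSOX10 #2 and 5.09 ± 0.36 in CRT34 Combo.

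**Figure D2:**
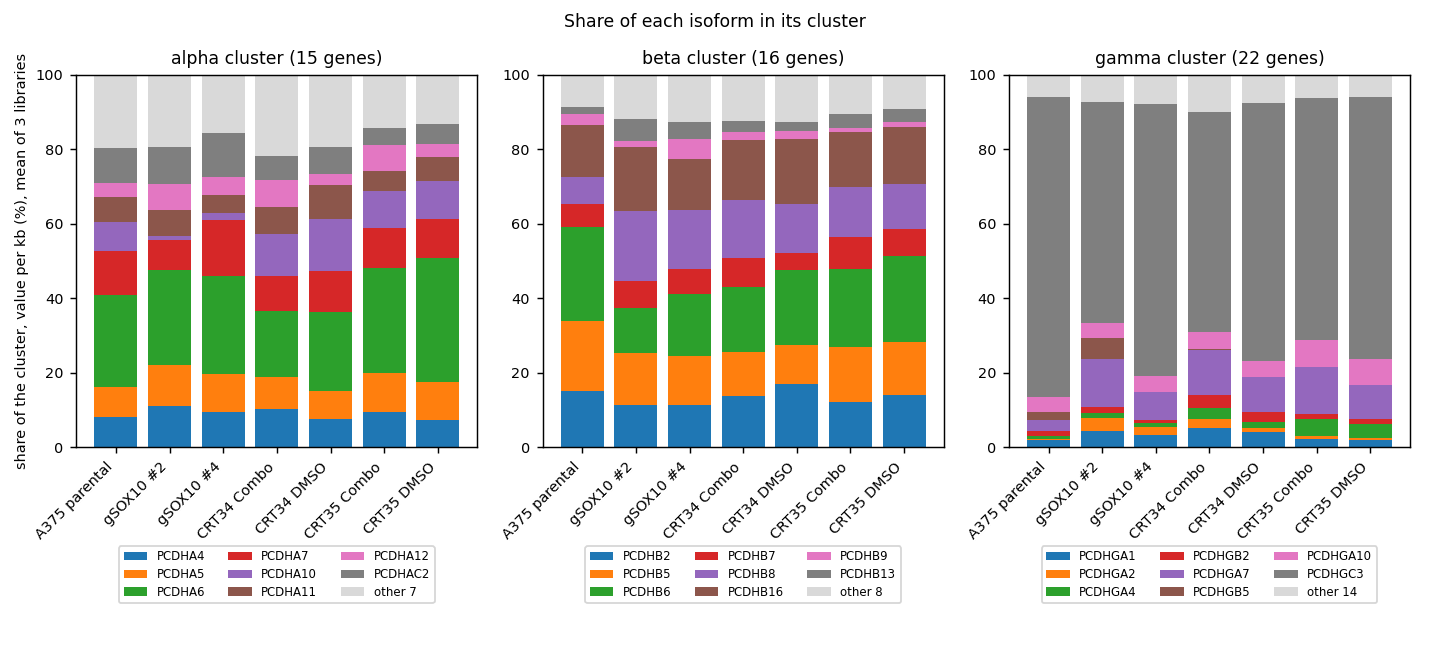
Stacked bars give the share of each isoform in its cluster (value per kb, %, mean of 3 libraries) in each group, with the 8 isoforms of highest share in colour and the rest in light grey. PCDHA6 is the largest alpha share in every group, the beta cluster is divided among several isoforms, and PCDHGC3 falls from 80.4% of the gamma cluster in parental cells to 59.4% in gSOX10 #2.

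Sums over a cluster depend less on how reads from constant exons were divided among its members, although a scaling factor for each gene, which the values appear to carry, would still affect them. The alpha sum was 3365 ± 483 (SD, n = 3) in parental cells, 6574 ± 500.1 in gSOX10 #2 and 3953 ± 663 in gSOX10 #4, and between 7939 and 9911 in the CRT groups. The beta sum was 7276 ± 707 in parental cells, 11282 ± 430.3 in gSOX10 #2, 5521 ± 287 in gSOX10 #4 and 12654.5 to 15108.6 in the CRT groups. For gamma without PCDHGC3 the sum was 2144 ± 369.6 in parental cells, 5492 ± 243 in gSOX10 #2, 1959 ± 172 in gSOX10 #4 and 2356 to 4041 in the CRT groups. gSOX10 #2 and the CRT groups thus lay above the parental line in alpha and beta in every library, while gSOX10 #4 lay below it in beta. These sums are descriptions and were not tested.

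The other C-type members were lower. PCDHAC1 had parental values of 149.5, 166 and 169 and was called only in CRT34 DMSO (353, 338 and 315, log2 change 1.05 ± 0.23 (SE), adjusted p = 0.00108). PCDHAC2, which is known for the tiling of serotonergic axons, had 284, 361 and 351 in parental cells and 873, 553 and 605 in gSOX10 #2, the only group called against the parental line (log2 change 1.00 ± 0.20 (SE), adjusted p = 0.000659). PCDHGC4, needed for the survival of cortical interneurons in mice, stayed between 1.22 and 26.2 in all libraries. It was called in none of the 6 comparisons with the parental line (1 of them reached an unadjusted p under 0.05 in limma). PCDHGC5 rose from 11.6, 5.27 and 12.2 to 61.4, 24.9 and 35.9 in gSOX10 #4 (log2 change 1.95 ± 0.53 (SE), adjusted p = 0.00722) and to 48.2, 68.4 and 25.9 in CRT35 Combo (log2 change 2.16 ± 0.53 (SE), adjusted p = 0.00228). It was also called higher in gSOX10 #2, CRT34 DMSO and CRT35 DMSO but was 12.6, 5.80 and 7.23 in CRT34 Combo, where the libraries overlapped those of the parental line.

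Knockout clone gSOX10 #2 had more RNA from all 3 clusters than the parental line. Of the 53 members 25 rose and 3 fell, or 47.2% and 5.66%, against 15.9% and 7.78% of all genes tested. The median log2 change was 0.93 over members and 0.03 over all genes. Alpha had 9 higher and 2 lower of 15, beta 7 higher and 0 lower of 16, and gamma 9 higher and 1 lower of 22 (at an unadjusted p under 0.05, limma had 2 lower in beta). The fibroblast, endothelial and leukocyte marker sums were also higher in every gSOX10 #2 library than in any parental library, and their part in this was not tested. With quantile normalization the split was 13 higher and 4 lower, and the medians were 0.60 over members and -0.09 over all genes.

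The gamma gene PCDHGA2 rose most, from 31.2, 25.1 and 41.5 in parental cells to 399, 553 and 461 in gSOX10 #2 (log2 change 3.83 ± 0.31 (SE), adjusted p = 2.61e-08). The adjacent PCDHGA3 went from 4.61, 11.1 and 4.98 to 31.1, 54.5 and 50.3 (log2 change 2.6044 ± 0.50 (SE), adjusted p = 0.000359), near the 3-read limit in the parental line. PCDHGA7 went from 269.8, 403 and 341 to 1709.9, 1762 and 1711 (log2 change 2.37 ± 0.22 (SE), adjusted p = 1.45e-07), and no library of either group came near the other group. PCDHB3 rose from 12.6, 12.3 and 9.32 to 71.8, 64.8 and 60.3 (log2 change 2.43 ± 0.90 (SE), adjusted p = 0.0344). Its call was lost in 9 of 11 alternatives, with adjusted p of 0.00027 to 0.0864 over them in limma. The SE rests on the spread pooled over all 21 libraries, among them a CRT34 DMSO library at 1302. The part of that library in the lost calls was not tested.

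Among the members that fell in gSOX10 #2, PCDHGA12 went from 35.1, 72.7 and 79.7 to 5.75, 6.63 and 4.47 (log2 change -3.19 ± 0.44 (SE), adjusted p = 1.54e-05), or a log2 change of -2.15 with a pseudocount of 10. PCDHA10 fell from 208, 289 and 297 to 102, 55.6 and 61.5 (log2 change -1.87 ± 0.21 (SE), adjusted p = 1.79e-06), against the direction of most alpha genes. PCDHA1, the first alpha gene, fell from 25.3, 49.1 and 51.9 to 14.7, 19.0 and 24.0 (log2 change -1.05 ± 0.36 (SE), adjusted p = 0.0223), a call lost in 6 of 11 alternatives.

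Clone gSOX10 #4 did not have this broad rise. Its members were called higher in 4 and lower in 6 of 53 cases (7.55% and 11.3%), against 11.8% and 8.91% of all genes. The median log2 change was -0.07 over members and 0.00 over all genes. With equal library totals the split was 6 higher and 4 lower and with quantile normalization 3 and 8, so which direction held more calls changed with the scaling. PCDHGB5 fell most: it was 220.3, 231 and 228 in parental cells, 742, 797 and 745 in gSOX10 #2 and 0, 2.14 and 7.65 in gSOX10 #4 (log2 change -6.24 ± 0.64 (SE), adjusted p = 5.56e-07). The 3 values in gSOX10 #4 are at or near the 3-read limit, so the fitted change depends on the pseudocount, and with a pseudocount of 10 it was -4.20. The lower members besides PCDHGB5 were PCDHGA12 (5.12, 5.22 and 4.48, log2 change -3.34 ± 0.44 (SE), adjusted p = 1.09e-05), PCDHA10 (66.4, 72.5 and 74.2, log2 change -1.86 ± 0.21 (SE), adjusted p = 2.02e-06), PCDHGB3, and, chosen after their values were seen, PCDHB12 and PCDHGB2. PCDHGB3 went from 42.2, 50.1 and 35.1 to 12.4, 11.5 and 28.4, a call lost in 9 of 12 alternatives.

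PCDHGA2 was higher in gSOX10 #4 as well (93.7, 187 and 171, log2 change 2.14 ± 0.31 (SE), adjusted p = 2.82e-05). PCDHA3 went from 81.1, 110.0 and 94.8 to 209, 218 and 248 (log2 change 1.24 ± 0.27 (SE), adjusted p = 0.00127), and in gSOX10 #2 it was 367, 303 and 299.9. PCDHB14 had parental values of 91.7, 106 and 117 and 294, 146 and 225 in gSOX10 #4 (log2 change 1.02 ± 0.24 (SE), adjusted p = 0.00217), just past the 2-fold threshold and lost in 5 of 12 alternatives. The clones were compared with the same parental libraries, so their changes are not independent of each other.

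Compared directly, gSOX10 #4 was lower than gSOX10 #2 in 23 members and higher in 0 (43.4% and 0%), against 7.06% lower and 2.64% higher among all genes. In this comparison 1 member was higher at an unadjusted p under 0.05 in limma. Members that fell numbered 5 in alpha, 9 in beta and 9 in gamma. The median log2 difference was -0.96 over members and -0.04 over all genes. PCDHGB5 differed most (log2 change -7.99 ± 0.64 (SE), adjusted p = 8.54e-08). PCDHA2 was 276, 262 and 262 in gSOX10 #2 and 49.3, 66.9 and 52.0 in gSOX10 #4 (log2 change -2.24 ± 0.23 (SE), adjusted p = 2.06e-06), on either side of the parental 103, 89.0 and 103. PCDHGA2 (log2 change -1.69 ± 0.31 (SE), adjusted p = 0.000704) and PCDHGA7 (471, 539 and 604 in gSOX10 #4, log2 change -1.69 ± 0.22 (SE), adjusted p = 2.69e-05) were also lower. PCDHA10 and PCDHGA12, low in both clones, did not differ by 2-fold between them. With 1 clone for each guide, guide and clone cannot be told apart.

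**Figure D3:**
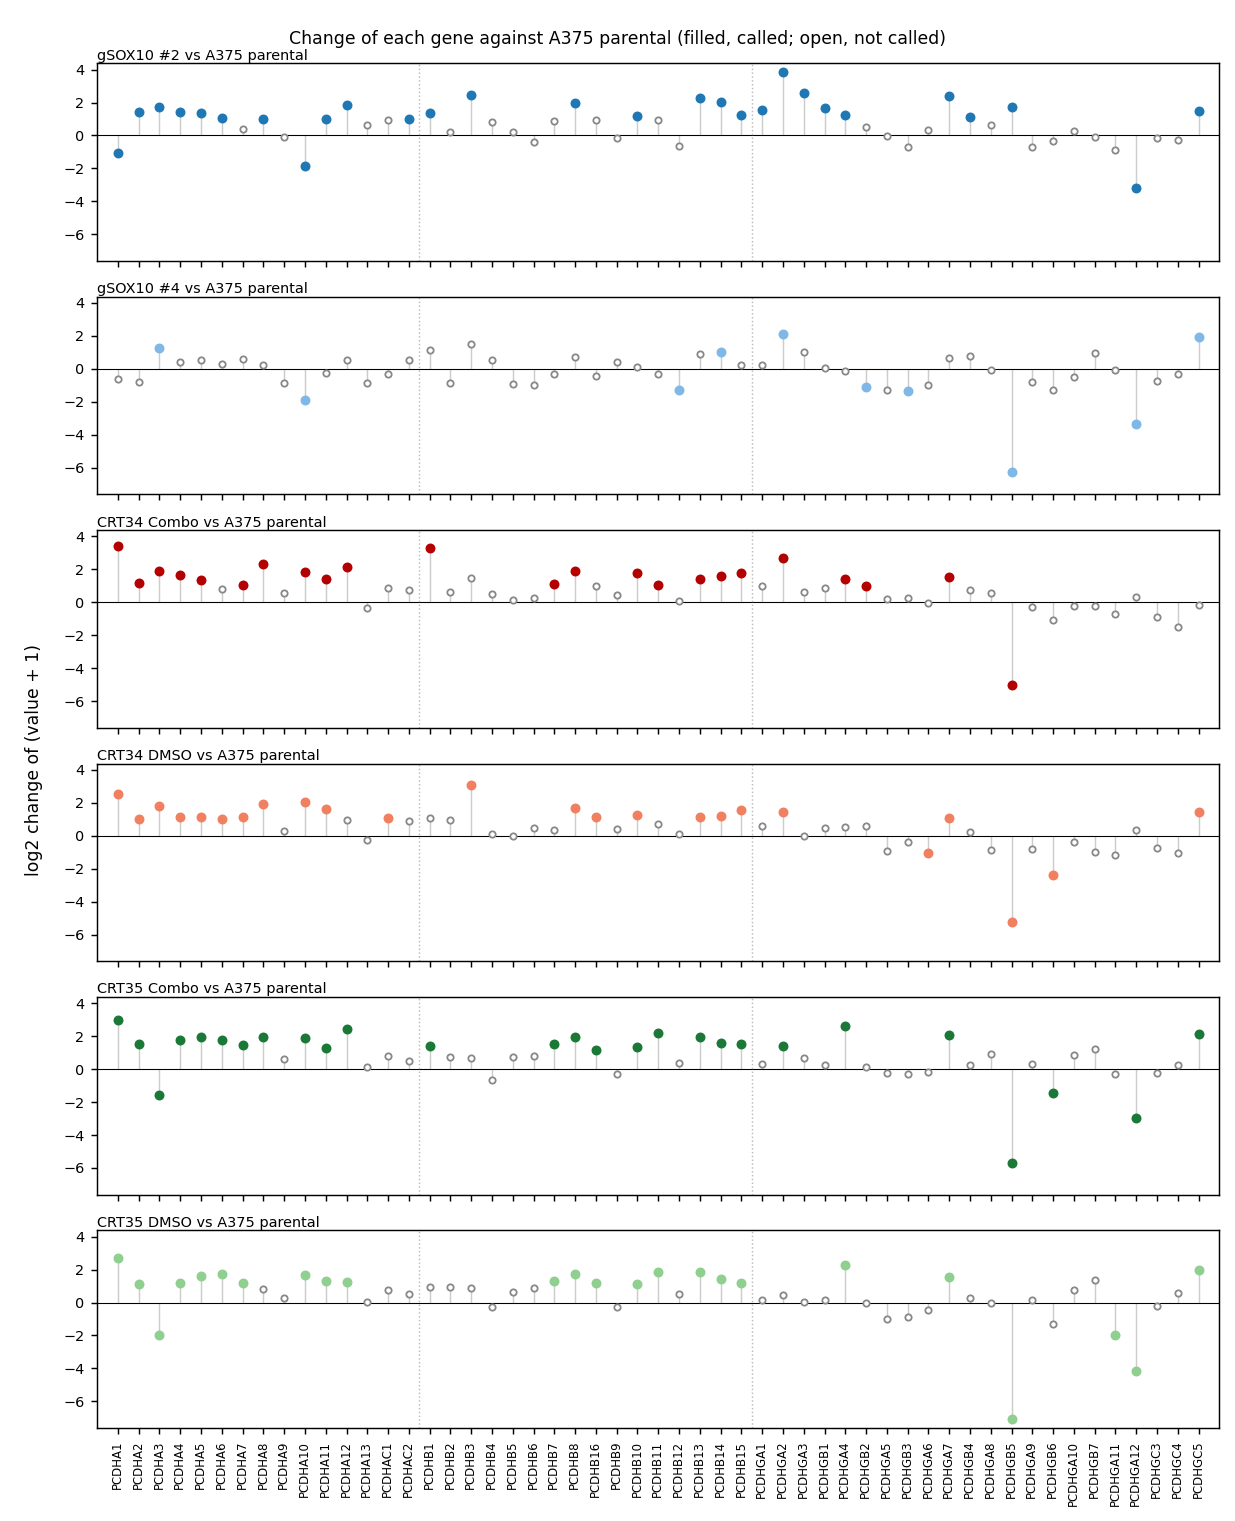
Each panel gives the log2 change of (value + 1) of the 53 genes in 1 derived group against A375 parental, with genes in chromosome order within clusters (dotted lines part alpha, beta and gamma), filled points for called and open points for not called genes. Most alpha and beta points lie above 0 in gSOX10 #2 and the 4 CRT groups, and PCDHGB5 is the lowest point in gSOX10 #4 and the CRT groups, at -5.02 to -7.07 in the latter.

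In the CRT lines the rise lay in the alpha and beta clusters. CRT34 Combo had 22 members higher and 1 lower than the parental line (19.1% and 8.09% of all genes) and CRT35 Combo 23 and 4 (20.1% and 10.2%). Without inhibitors CRT34 DMSO had 21 and 3 (15.7% and 7.35%) and CRT35 DMSO 20 and 4 (15.7% and 7.98%). By cluster, alpha had 9 to 11 of 15 higher, beta 7 to 9 of 16 and gamma 3 or 4 of 22. The median log2 change was 1.14 to 1.54 in alpha, 1.02 to 1.25 in beta and -0.39 to 0.26 in gamma. No beta gene was called lower in any CRT group, and none was lower at an unadjusted p under 0.05 in limma.

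Quantile normalization shifted the median of all genes from between 0.02 and 0.05 to between -0.13 and -0.10 in these comparisons and moved the split to 17 higher and 3 lower in CRT34 Combo, 9 and 7 in CRT34 DMSO and 14 and 7 in CRT35 DMSO. The median over members stayed above that of all genes in each of them, at 0.37 to 0.63. As given above, the fibroblast and endothelial marker sums are also higher in every CRT library than in any parental library, and their part in these changes was not tested. In bulk RNA, fewer cells that use an isoform and less RNA of it per cell cannot be told apart.

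PCDHA1 had the largest alpha rise in the CRT lines. Against 25.3, 49.1 and 51.9 in parental cells it was 458, 511 and 362 in CRT34 Combo, 173, 226 and 330.0 in CRT34 DMSO, 317, 271 and 412 in CRT35 Combo and 329, 223 and 248 in CRT35 DMSO. Every CRT library was above every parental library (log2 change 3.42 ± 0.36 (SE), adjusted p = 3.76e-07 in CRT34 Combo, with 2.52, 2.9996 and 2.68 in the other groups). PCDHA10, which was lower in both clones, was 911, 965 and 903 in CRT34 Combo and 877, 1226 and 1228 in CRT34 DMSO (log2 change 2.07 ± 0.21 (SE), adjusted p = 3.87e-07 for the latter). In CRT35 it was 1072, 884 and 976 with and 866, 912 and 749.9 without inhibitors, and every CRT library was above every parental library. PCDHA8 rose from 42.6, 80.2 and 58.7 to 344, 283 and 280.4 in CRT34 Combo (log2 change 2.34 ± 0.30 (SE), adjusted p = 4.42e-06). PCDHA12 rose from 112, 124 and 133 to 950.5, 608 and 490.2 in CRT35 Combo (log2 change 2.41 ± 0.39 (SE), adjusted p = 4.82e-05), the latter with a wide spread between libraries.

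Of the beta genes, PCDHB13 rose from 166, 199 and 220.3 to 799, 665 and 674 in CRT35 DMSO (log2 change 1.87 ± 0.18 (SE), adjusted p = 9.90e-08) and was 1066, 861 and 879.7 in gSOX10 #2. PCDHB11 went from 96.7, 133 and 100 to 601, 402 and 531 in CRT35 Combo (log2 change 2.20 ± 0.23 (SE), adjusted p = 3.12e-07). PCDHB1 was near the 3-read limit in parental cells (4.24, 4.26 and 3.67) and rose to 69.9, 65.8 and 26.4 in CRT34 Combo (log2 change 3.33 ± 0.47 (SE), adjusted p = 1.43e-05). PCDHB6, the leading beta isoform, was called in no comparison with the parental line, with parental values of 1453, 1753 and 1731 against 3049, 3028 and 3095 in CRT35 DMSO (log2 change 0.90 ± 0.12 (SE), adjusted p = 7.27e-06). PCDHB8 rose from 350.1, 425 and 441 to 1541, 1488 and 1477 in CRT34 Combo (log2 change 1.89 ± 0.18 (SE), adjusted p = 1.67e-07), a level like that in gSOX10 #2 (1653, 1575 and 1624).

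PCDHB3 rested on a single library in CRT34 DMSO. It was 12.6, 12.3 and 9.32 in parental cells and 29.98, 1302 and 27.7 in CRT34 DMSO, where replicate 2 stood far above the other libraries of every group. The log2 change of 3.09 ± 0.90 (SE, adjusted p = 0.00969) became 1.28 with an adjusted p of 0.0123 in limma without that library. The same library had the highest value of PCDHB2 (1798, 3436 and 2377 in the group), the upstream neighbour, with which PCDHB3 shares 6.9% of its first-exon stretches, while the downstream neighbour PCDHB4 had 45.6, 28.8 and 31.1. Whether reads of one were given to the other was not tested.

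In the gamma cluster PCDHGB5 was nearly absent from all CRT libraries. It was 4.56, 8.10 and 5.88 in CRT34 Combo, 3.18, 6.79 and 5.89 in CRT34 DMSO, 2.42, 2.75 and 5.47 in CRT35 Combo and 0, 0 and 3.89 in CRT35 DMSO, against values above 220 in parental cells. The log2 change was -5.02 ± 0.64 (SE, adjusted p = 5.04e-06) in CRT34 Combo and -7.07 ± 0.64 (SE, adjusted p = 6.18e-08) in CRT35 DMSO, and with a pseudocount of 10 it was between -3.88 and -4.41 in the 4 groups. PCDHGB4, whose promoter element is identical, had 36.9, 54.1 and 58.3 in parental cells and 70.8, 47.4 and 65.2 in CRT35 DMSO (log2 change 0.30 ± 0.28 (SE), adjusted p = 0.409).

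PCDHGA7 rose in all CRT groups and was highest in CRT35 Combo (2041, 1190.3 and 1198, log2 change 2.09 ± 0.22 (SE), adjusted p = 2.94e-07). PCDHGA4 went from 84.2, 103 and 66.8 to 629, 535 and 418 in CRT35 Combo (log2 change 2.62 ± 0.29 (SE), adjusted p = 6.67e-07), and PCDHGA2 from 31.2, 25.1 and 41.5 to 173, 231 and 223 in CRT34 Combo (log2 change 2.66 ± 0.31 (SE), adjusted p = 1.52e-06). PCDHGB6 was lower in CRT34 DMSO (2.44, 14.2 and 10.2 against 40.3, 46.0 and 43.1, log2 change -2.40 ± 0.58 (SE), adjusted p = 0.00267). It was also called lower in CRT35 Combo, a call lost in 7 of 12 alternatives. PCDHGA6 was called lower in CRT34 DMSO (27.3, 60.4 and 56.4), a call lost in 5 of 12. PCDHGA11, named after its values were seen, was called lower in CRT35 DMSO at 0, 3.27 and 14.9 against 11.9, 18.3 and 14.7, with libraries that overlapped.

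By kind of isoform, 9 or 10 of the 13 alternate alpha genes were called higher in each CRT group, with medians of the log2 change of 1.15 to 1.74. Of the 12 gamma A genes 2 or 3 were higher and 0 to 2 lower, with medians of -0.18 to 0.50. Of the 7 gamma B genes 0 or 1 were higher and 1 or 2 lower, with medians of -0.41 to 0.26, and in gSOX10 #4 these 7 genes had 0 higher, 3 lower and a median of -1.09. The members not described otherwise lay in the same ranges. Among them PCDHA11 had group means of 200.2 in gSOX10 #4 to 704.5 in CRT34 DMSO, PCDHB7 of 380.2 to 1328 and PCDHB15 of 97.3 to 323. In the gamma cluster PCDHGA1 and PCDHGB1 were highest in gSOX10 #2, with means of 589.9 and 453 against 207 and 145 in the parental line, and PCDHGA5 and PCDHGA8 stayed under 50 in every library. PCDHGA9, between PCDHGB5 and PCDHGB6 on the chromosome, had its lowest mean in gSOX10 #2 and its highest, 122, in CRT35 Combo. These values are a description.

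**Figure D4:**
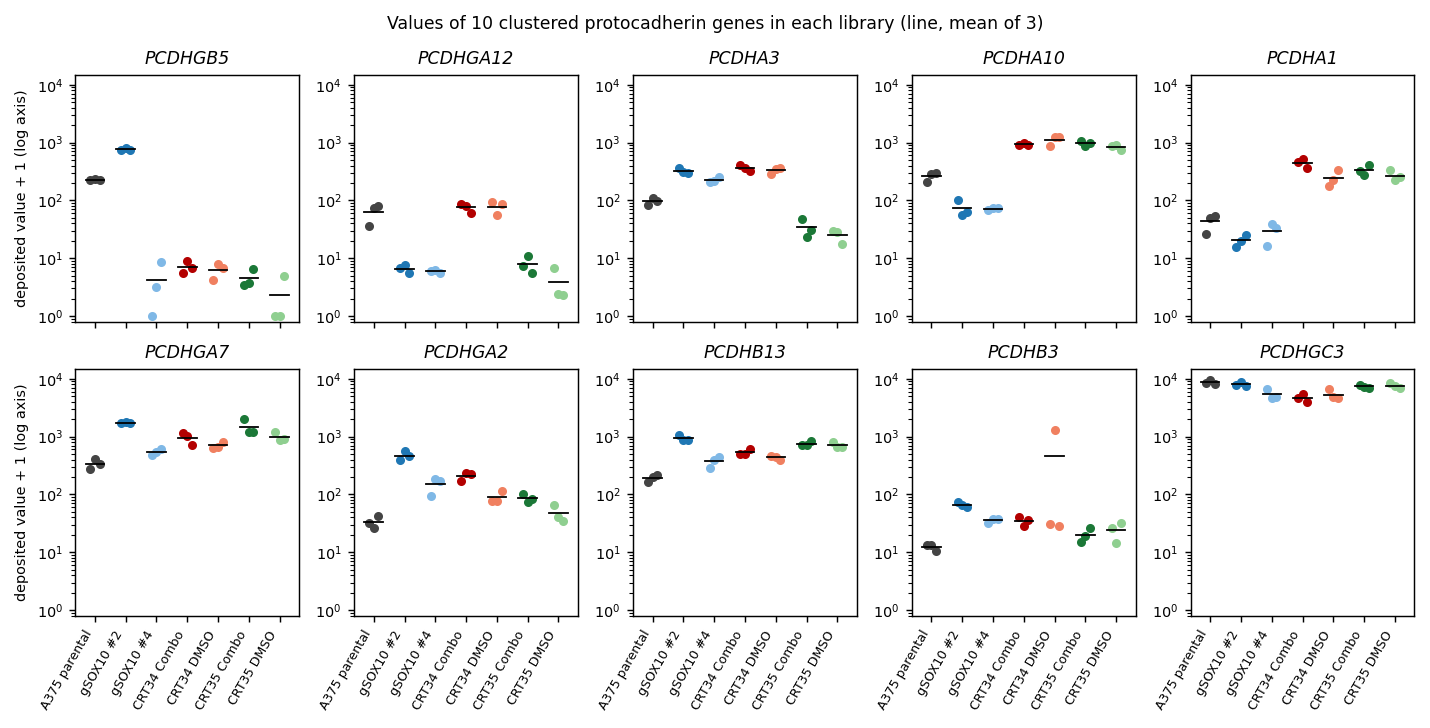
Values plus 1 on a log axis of 10 clustered protocadherin genes in each library of the 7 groups, with points for libraries and lines for the mean of 3. PCDHGB5 is above 220 in parental cells and gSOX10 #2 and below 10 elsewhere, PCDHA3 and PCDHGA12 part CRT34 from CRT35, and 1 library of CRT34 DMSO stands above the rest in PCDHB3.

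CRT34 and CRT35 differed in a few isoforms by a large amount. Without inhibitors 4 members were higher and 3 lower in CRT35 than in CRT34 (3.69% and 4.42% of all genes), and with inhibitors 4 were higher and 5 lower (3.17% and 3.74%). These shares of 53, 5.66% to 9.43%, rest on 3 to 5 genes each. They were above those of all genes, but with so few genes this is no result about the family, and it was not tested. The median log2 difference over members was 0.06 in both comparisons. PCDHA3 was 404, 358 and 321 in CRT34 Combo and 285, 352 and 365 in CRT34 DMSO. In CRT35 it was 47.5, 22.7 and 29.4 with and 28.5, 27.0 and 16.4 without inhibitors, while the parental values of 81.1, 110.0 and 94.8 lay between the lines. The log2 difference in limma was -3.78 ± 0.27 (SE, adjusted p = 2.23e-08) without and -3.46 ± 0.27 (SE, adjusted p = 8.13e-08) with inhibitors.

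PCDHGA12 likewise was 86.4, 80.1 and 58.9 in CRT34 Combo and 90.8, 55.8 and 84.8 in CRT34 DMSO, libraries that overlapped the parental 35.1, 72.7 and 79.7. It was 6.41, 9.71 and 4.52 in CRT35 Combo and 5.84, 1.36 and 1.26 in CRT35 DMSO, and the log2 difference of CRT35 from CRT34 was -4.53 ± 0.44 (SE, adjusted p = 1.54e-06) without and -3.31 ± 0.44 (SE, adjusted p = 5.42e-05) with inhibitors. Most of these CRT35 values are near the 3-read limit. With a pseudocount of 10 the change from the parental line was -2.05 in CRT35 Combo and -2.46 in CRT35 DMSO. No library of CRT35 overlapped one of CRT34 for either gene. PCDHGA12 is the last alternate gamma gene and PCDHA3 the third alpha gene, and their neighbours PCDHGA11 and PCDHA2 were not called between the lines.

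In the other direction PCDHGA4 was 126, 90.5 and 163 in CRT34 DMSO and 602, 319 and 356 in CRT35 DMSO (log2 change 1.72 ± 0.29 (SE), adjusted p = 0.000507). PCDHGA10 was 389.7, 308 and 336 and 821, 782 and 629 (log2 change 1.11 ± 0.20 (SE), adjusted p = 0.000885) and PCDHB11 151, 222 and 178 and 441, 388 and 360.1 (log2 change 1.12 ± 0.23 (SE), adjusted p = 0.00257) in the same groups. These 3 genes were also called between the Combo groups, where the differences of PCDHGA4 and PCDHGA10, 1.18 and 1.12, lost their call in 3 of 13 alternatives each. PCDHGB7 was called without inhibitors (3.73, 25.9 and 55.1 against 101.3, 116 and 82.6, log2 change 2.38 ± 0.57 (SE), adjusted p = 0.00773; lost in 2 of 13), and PCDHGC5 with them (log2 change 2.30 ± 0.53 (SE), adjusted p = 0.00644). PCDHA8 was lower in CRT35 DMSO (log2 change -1.12 ± 0.30 (SE), adjusted p = 0.0148; lost in 4 of 13). PCDHB1 (lost in 3 of 13), PCDHGA2 and, named after its values were seen, PCDHB4 were lower in CRT35 Combo. Each of CRT34 and CRT35 is a single line, so a line cannot be told apart from its history.

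Few isoforms were called between cells with and without inhibitors, and few of all genes were. In CRT34, Combo was higher than DMSO in 2 members and lower in 0 (3.77% and 0%, against 2.84% and 2.26% of all genes). At an unadjusted p under 0.05 in limma, 11 were higher and 1 lower. PCDHB1 was 13.4, 7.55 and 9.02 without and 69.9, 65.8 and 26.4 with inhibitors (log2 change 2.24 ± 0.47 (SE), adjusted p = 0.00624). PCDHGA2 was 75.6, 76.8 and 112 without and 173, 231 and 223 with them (log2 change 1.25 ± 0.31 (SE), adjusted p = 0.0174). Neither call held when only the compared groups were fitted, with adjusted p of 0.102 and 0.108. The count was 1 without CRT34 Combo replicate 2, CRT34 DMSO replicate 1 or CRT34 DMSO replicate 2 and 4 without CRT34 Combo replicate 3.

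In CRT35, limma called 0 members in either direction (0.487% higher and 0.648% lower among all genes), with 7 higher and 0 lower at an unadjusted p under 0.05. Without CRT35 DMSO replicate 1, the shallowest library, 1 member was called. The median log2 change over members was 0.28 in CRT34 and 0.20 in CRT35, against 0.00 and 0.01 over all genes. PCDHA12 had values of 201, 266 and 249.6 without and 973, 589 and 294 with inhibitors in CRT34 (log2 change 1.22 ± 0.39 (SE), adjusted p = 0.0638). It had 382, 258 and 242 without and 950.5, 608 and 490.2 with them in CRT35 (log2 change 1.19 ± 0.39 (SE), adjusted p = 0.147), which did not pass the test. The difference between the drug effects of the lines was called in 0 members (0% higher and 0.0104% lower among all genes), and in limma 1 member was higher and 2 lower at an unadjusted p under 0.05.

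**Figure D5:**
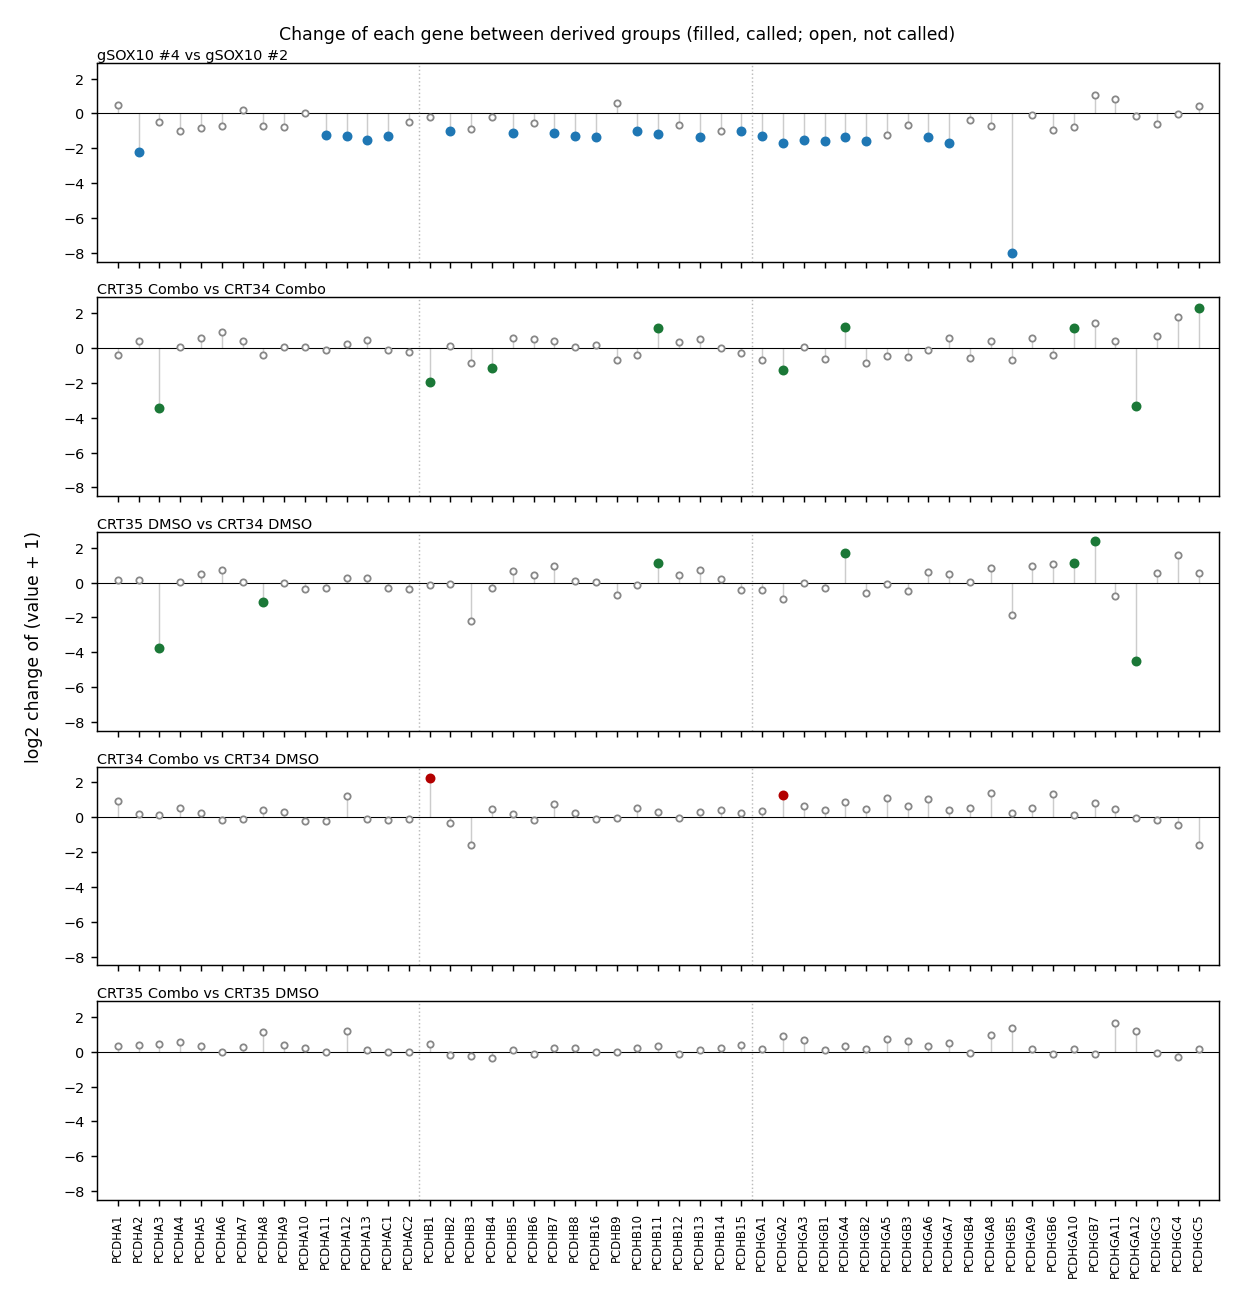
Each panel gives the log2 change of (value + 1) of the 53 genes between 2 derived groups, in chromosome order within clusters, with filled points for called and open points for not called genes. gSOX10 #4 is called below gSOX10 #2 in 23 genes, PCDHA3 and PCDHGA12 are the lowest points between CRT35 and CRT34 with and without inhibitors, and 2 genes are filled between Combo and DMSO in CRT34 and 0 in CRT35.

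Factors of CTCF and cohesin loops and of DNA methylation and heterochromatin were called lower, not higher, where they were called. Whether they act on this locus in these cells was not measured. Of 16 factors of CTCF and cohesin loops, limma called 0 higher and 0 to 2 lower (0% to 12.5%) against the parental line, beside 7.35% to 10.2% lower and 11.8% to 20.1% higher of all genes (0 or 1 higher and 5 to 11 lower at an unadjusted p under 0.05). STAG1, a cohesin subunit, fell from a mean of 7930 in parental cells to 3150 in CRT35 Combo (log2 change -1.33 ± 0.21 (SE), adjusted p = 3.33e-05). SMC3, another subunit, fell from 17390 to 8737 (log2 change -1.01 ± 0.17 (SE), adjusted p = 8.39e-05). Of 17 factors of DNA methylation and heterochromatin, limma called 0 higher and 2 to 5 lower in each group (0 higher and 9 to 14 lower at an unadjusted p under 0.05). The lower share was 11.8% to 29.4%, beside 7.35% to 10.2% of all genes. The lowest share, in CRT35 DMSO, rests on 2 genes beside 7.98% of all genes. EZH2, the enzyme of the Polycomb mark, was lower in all 6 groups, with a mean of 4812 in parental cells and 1622 to 2256 elsewhere (log2 change -1.61 ± 0.27 (SE), adjusted p = 0.000131 in gSOX10 #2). TET3, which oxidises methylated cytosine, was lower in gSOX10 #2 and both Combo groups (log2 change -1.30 ± 0.22 (SE), adjusted p = 0.000118 in CRT34 Combo). SUZ12 was lower in gSOX10 #4 (log2 change -1.38 ± 0.20 (SE), adjusted p = 2.29e-05).

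The flanking genes of chromosome 5 that were listed as neighbours were seldom called higher. PCDH1 and PCDH12, also on chromosome 5, were listed with the protocadherins outside the clusters and are not among them. PCDH12 had a mean of 14.8 in parental cells, 34.0 in gSOX10 #2, 11.4 in gSOX10 #4 and 203 to 657.5 in the CRT groups. PCDH1 had a lower mean in every derived group than in parental cells. Of 25 neighbours tested 1 was higher in gSOX10 #2 (4%, against 15.9% of all genes). In the other 5 groups 0 were higher, against 11.8% to 20.1% of all genes (0 to 2 at an unadjusted p under 0.05 in limma). In each group 1 to 3 were lower (4% to 12%, near the 7.35% to 10.2% of all genes). SPRY4, an inhibitor of receptor kinase signalling that is induced by the pathway the drugs block, fell with inhibitors in CRT34 (log2 change -1.94 ± 0.24 (SE), adjusted p = 0.000139) and CRT35 (log2 change -1.35 ± 0.24 (SE), adjusted p = 0.00643). TMCO6 was lower in gSOX10 #2 (log2 change -1.12 ± 0.18 (SE), adjusted p = 8.97e-05) and both CRT35 groups. GNPDA1 was lower in CRT35 Combo and CRT34 DMSO. Inside the beta cluster 3 pseudogenes were tested. PCDHB17P rose from a mean of 406 to 1192 in CRT35 DMSO (log2 change 1.56 ± 0.19 (SE), adjusted p = 2.52e-06). PCDHB18P rose in CRT34 Combo and both CRT35 groups, and all 3 pseudogenes rose in CRT35 Combo.

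Protocadherins and related cadherins outside the clusters changed in both directions against the parental line. Of 21 tested, 5 were higher and 3 lower in gSOX10 #2, 3 and 10 in gSOX10 #4, and 5 to 7 higher and 2 to 6 lower in the CRT groups. The higher and lower shares were 23.8% and 14.3% in gSOX10 #2 (15.9% and 7.78% of all genes). They were 14.3% and 47.6% in gSOX10 #4 (11.8% and 8.91% of all genes). In the CRT groups they were 23.8% to 33.3% and 9.52% to 28.6% (15.7% to 20.1% and 7.35% to 10.2% of all genes). Compared directly, gSOX10 #4 was lower than gSOX10 #2 in 12 and higher in 0 (57.1% and 0%, against 7.06% and 2.64% of all genes). The clustered members also had 0 higher there, with 43.4% lower. The median log2 difference was -1.11 here and -0.96 over clustered members. PCDH7 had a mean of 492 in parental cells, 7167 in gSOX10 #2 (log2 change 3.83 ± 0.36 (SE), adjusted p = 1.77e-07) and 684 in gSOX10 #4. PCDH1, which lies beyond the gamma cluster on chromosome 5, fell from 2156 to 682 in gSOX10 #2 and to between 45.6 and 141 in the other groups (log2 change -5.32 ± 0.60 (SE), adjusted p = 1.71e-06 in gSOX10 #4). FAT1 rose from 14200 to 62110 in gSOX10 #2 (log2 change 2.15 ± 0.23 (SE), adjusted p = 7.91e-07). CELSR3 fell from 1859 to 687 in CRT35 DMSO (log2 change -1.43 ± 0.14 (SE), adjusted p = 1.30e-07).

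Among 18 binding partners and proteases of clustered protocadherins, 0 were called higher and 1 lower in each clone (5 and 6 higher at an unadjusted p under 0.05 in limma), and 1 to 3 higher and 0 or 1 lower in the CRT groups. The higher shares of 5.56% to 16.7% in the CRT groups were below the 15.7% to 20.1% of all genes in the same comparisons. In each clone 0% were higher and 5.56% lower. Of all genes 15.9% were higher and 7.78% lower in gSOX10 #2, and 11.8% and 8.91% in gSOX10 #4. NLGN1, which binds gamma protocadherins at synapses, fell from a mean of 234 to 7.78 in gSOX10 #4 (log2 change -4.70 ± 0.37 (SE), adjusted p = 1.50e-08) and rose in both CRT35 groups. NCSTN, a subunit of the gamma-secretase that cleaves them, rose from 7333 to 18060 in CRT34 Combo (log2 change 1.29 ± 0.13 (SE), adjusted p = 3.30e-07). WASF1, an actin regulator that the cytoplasmic part recruits, fell in CRT35 Combo (log2 change -1.29 ± 0.14 (SE), adjusted p = 5.53e-07).

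Of 14 neuronal markers listed, 9 passed the filter. STMN2, ELAVL3, ELAVL4, INA and DCX were too low to pass, so the shares below cover only markers that were detected. RBFOX3 (mean 0.549 in parental cells, 22.42 in CRT35 DMSO) and NEFM (4.47 in parental cells, 57.35 in CRT34 Combo) passed through derived groups. Against the parental line these markers could hardly be called lower, which raises the higher shares. The shares are therefore a description. Of the 9, 6 rose and 1 fell in gSOX10 #2 and 3 rose in gSOX10 #4, where 1 was lower at an unadjusted p under 0.05 in limma. In the CRT groups 4 or 5 rose and 0 to 3 fell. The higher shares were 66.7% in gSOX10 #2, 33.3% in gSOX10 #4 and 44.4% to 55.6% in the CRT groups, against 15.9%, 11.8% and 15.7% to 20.1% of all genes. The lower shares were 11.1%, 0% and 0% to 33.3%, against 7.78%, 8.91% and 7.35% to 10.2% of all genes. SNAP25, a protein of synaptic vesicle fusion, went from a mean of 57.1 in parental cells to 4104 in gSOX10 #2 (log2 change 6.07 ± 0.59 (SE), adjusted p = 2.42e-07) and 1104 in gSOX10 #4. In CRT35 it fell (log2 change -1.96 ± 0.59 (SE), adjusted p = 0.0113 in CRT35 DMSO). SYT1, the calcium sensor of vesicle fusion, rose in gSOX10 #2 (log2 change 2.27 ± 0.21 (SE), adjusted p = 1.46e-07) and all CRT groups. MAP2, a microtubule protein of dendrites, rose in all 6 groups (log2 change 3.53 ± 0.39 (SE), adjusted p = 7.85e-07 in CRT34 Combo). GAP43, of growing axons, rose in both clones (log2 change 2.40 ± 0.34 (SE), adjusted p = 1.98e-05 in gSOX10 #2) and fell in CRT35 Combo.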

How the data were processed

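Libraries of poly(A) RNA were sequenced in pairs (NovaSeq); kits of different name (TruSeq) stand in the labels and the methods, so strandedness is uncertain. Per the labels the authors aligned reads to GRCh38 with STAR 2.6.1a, quantified genes with RSEM and normalized the counts with DESeq2, and the deposited values are this signal: gene counts divided by size factors, apparently also by a factor for each gene, and not whole. From them log2(value + 1) was fitted in limma 3.58.1 (R 4.3.3, limma-trend, residual df 14, prior df 4.7) over all 21 libraries and the 19290 genes (of 32889 above 0) that reached 10 in 3 or more libraries, with Benjamini-Hochberg adjustment, after the test was tested on simulated data. Depth, 27.9 to 76.1 M reads, limits values below the 3-read floor of 2.51 to 6.72. Named members were the leading isoform of each cluster and group, the C-type members and up to 4 called, non-overlapping members per comparison and direction, and from each list up to 4 genes of smallest adjusted p. Members and lists were chosen with earlier results of these data known.

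No 2 libraries held identical values. Of 15 pairs of groups that share replicate numbers, 1 had deviations that correlated above 0.1 in every pair: CRT34 Combo with CRT35 Combo (r = 0.218, 0.253 and 0.207, a hint from the data). Alternatives were a pseudocount of 10, no filter, equal library totals, quantile normalization, a fit of the compared groups alone, a replicate block, libraries left out and shares without length. Promoters came from RefSeq (GRCh38.p14), and lengths and exons from GENCODE, in which 58472 of 58825 gene identifiers were matched. Figures were drawn with matplotlib 3.10.9. Genes withheld for evaluation are not reported here.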

Additional observations from a re-analysis of the deposited data

How the results depend on the processing

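Most counts of called members stayed within 1.5 times the reported ones: 141 of 155 did, with no change of sign in any named change, and of 63 named calls 48 held in every alternative and 15 were lost in at least 1. This measure takes the total called, whatever the direction. Quantile normalization in CRT34 DMSO counted as within it, although 21 higher and 3 lower became 9 and 7. So did gSOX10 #4, where 4 higher and 6 lower became 6 and 4 with equal library totals and 3 and 8 with quantile normalization. Against the parental line, leaving out 1 library gave 20 to 25 called members in gSOX10 #2 (28 reported), 9 to 13 in gSOX10 #4 (10), 19 to 25 in CRT34 Combo (23), 25 to 27 in CRT35 Combo (27), 20 to 23 in CRT34 DMSO (24) and 20 to 24 in CRT35 DMSO (24). Quantile normalization gave 17 in gSOX10 #2. Between Combo and DMSO in CRT34 the 2 called members became 4 with quantile normalization, 0 in a fit of the compared groups alone, 4 without both CRT34 Combo replicate 3 and CRT35 DMSO replicate 1, and 1 to 4 without 1 library. In CRT35 the 0 became 1 with a pseudocount of 10, 2 without both of those libraries and 0 to 1 without 1 library, and the 0 of the difference in drug effect became 1 without both. The causes were not tested.

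With a replicate block in a fit of the compared groups the count was 0 for Combo against DMSO in CRT34 and 2 in CRT35, 11 in gSOX10 #4, 24 and 27 in CRT34 and CRT35 Combo, 23 and 25 in CRT34 and CRT35 DMSO, 5 between the lines without inhibitors and 0 for the difference in drug effect. In these pairs the numbers are only shared. Between CRT34 Combo and CRT35 Combo, where deviations correlated, the block gave 9 called members (5 higher and 4 lower), as against 9 without it (4 and 5). No block was fitted for gSOX10 #2, whose labels give no replicate numbers. Without division by length, 5 beta shares moved by more than their SD: PCDHB6 to 22.6% in the parental line, 14.9% in gSOX10 #4, 15.8% in CRT34 Combo and 20.6% in CRT35 DMSO, and PCDHB8 to 14.3% in gSOX10 #2. Without gSOX10 #4 replicate 1, PCDHB8 led the beta cluster in that clone. Depth limits the members whose group values lie near 3 reads, among them PCDHGB5, PCDHGA12, PCDHB1 and PCDHGC4.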
